A study of Mus musculus with 4 samples.

Results

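The neural switch of the BAF complex was followed through 10 genes: Actl6a, Actl6b, Phf10, Dpf1, Dpf2, Dpf3, Ss18, Ss18l1, Smarca2 and Smarca4. They were taken by symbol from gene tables holding 24319 gene names, and all 10 were found, each in 1 row. RNA-seq was done on 2 normal prostates and 2 prostate tumours. The normal prostates came from wild-type F1 males of C57BL/6 and FVB parents at 22 weeks. The tumours came from F1 TRAMP males of the same cross, heterozygous for a transgene in which the promoter of rat probasin drives SV40 large T antigen, at 24 weeks (24 to 28 weeks in the labels' protocols). The promoter is active in prostate epithelium, while both kinds of sample are dissected bulk tissue, so a fall in RNA per cell and a loss of the cells that make it cannot be told apart. The labels do not say that the samples of a group came from separate litters or that the tumours came from separate mice, and a p-value here covers only the spread among these 4 samples, which may be technical.

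BAF complexes are chromatin remodellers of the SWI/SNF family, which use ATP to move or evict nucleosomes. Each complex carries an ATPase, Smarca4 (BRG1) or Smarca2 (BRM), and a set of accessory subunits drawn from small gene families. When neural progenitors leave the cell cycle, subunits are exchanged: the actin-like protein Actl6a (BAF53a) gives way to Actl6b (BAF53b), the PHD finger proteins Phf10 (BAF45a) and Dpf2 (BAF45d) to Dpf1 (BAF45b) and Dpf3 (BAF45c), and Ss18 to its relative Ss18l1 (CREST). The repressor Rest and the microRNAs miR-9-3p (miR-9*) and miR-124 are known to control the exchange of the actin-like subunit in neurons. The ATPases are not part of the exchange in the strict sense, and are compared here as a further pair of paralogs.

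Sequences are shown where they bear on the exchange. The table of RefSeq promoters (build GRCm38.p6) held 9 of the 10 genes. Its stretches before the start site are given for the neuronal genes that were absent or scarce in normal prostate, and for Actl6a, the progenitor counterpart of Actl6b, 160 bases each, 5′ to 3′ on the strand of the gene, ending at the base before the start. Capitals mark the CCAAT box, CCAAT or its reverse complement ATTGG. The Actl6b stretch is chr5:137553386-137553545 on the plus strand, that of Dpf1 is chr7:29303845-29304004 on the plus strand, that of Dpf3 is chr12:83487737-83487896 on the minus strand and that of Actl6a is chr3:32708386-32708545 on the plus strand.
Actl6b: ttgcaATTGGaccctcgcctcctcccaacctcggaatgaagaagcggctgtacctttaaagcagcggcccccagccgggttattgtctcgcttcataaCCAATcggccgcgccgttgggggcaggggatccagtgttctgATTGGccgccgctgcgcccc
Dpf1: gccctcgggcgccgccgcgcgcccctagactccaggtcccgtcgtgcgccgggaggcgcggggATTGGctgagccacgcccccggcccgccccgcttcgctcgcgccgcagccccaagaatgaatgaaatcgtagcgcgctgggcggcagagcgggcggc
Dpf3: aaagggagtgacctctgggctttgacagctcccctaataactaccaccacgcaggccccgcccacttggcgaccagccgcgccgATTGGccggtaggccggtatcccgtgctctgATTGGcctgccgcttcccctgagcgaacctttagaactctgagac
Actl6a: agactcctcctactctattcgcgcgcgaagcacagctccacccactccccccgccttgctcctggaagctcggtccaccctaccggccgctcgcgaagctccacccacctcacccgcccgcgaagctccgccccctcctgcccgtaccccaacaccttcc
In the 250 bases before the start, with both strands searched, a CCAAT box was found in 4 of the 9 genes, against 33.8% of 32851 promoters. These were Actl6b (3 matches), Dpf3 (3 matches), Dpf1 (2 matches) and Dpf2 (1 match), while the neuronal Ss18l1 had none. The match nearest the start lay 20 bases before it in Actl6b, 45 in Dpf3 and 97 in Dpf1. The GC box GGGCGG was found in 7 of the 9 genes, Actl6b and Dpf2 being the ones without it, against 32.7% of promoters. A TATA box (TATAAA) was found in 0 of 9 against 12.4%, the cAMP response element TGACGTCA in 0 of 9 against 1.55%, and TTCAGCACC, the left part of the RE1 element to which Rest binds, in 0 of 9 against 0.301%. These matches describe letters in this window and were not chosen independently of the expression values.

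The microRNA that acts on Actl6a in neurons is shown with its seed, bases 2 to 8, in capitals, above the match to that seed in the Actl6a 3′ UTR (chr3:32726625-32726649, GRCm38, plus strand, last exon), in which capitals mark the 7 bases that pair with the seed.
mmu-miR-9-3p: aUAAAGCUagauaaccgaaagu
Actl6a 3′ UTR: cacctcaacgtctgtAGCTTTAgta
This 7-base match occurred 1 time in the 371 bases of the 3′ UTR, and in the last 371 bases of 2.72% of 21668 protein-coding transcript ends. Mature microRNAs were not measured in these libraries.

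The files give FPKM, which divides fragments by the length of the transcript and the size of the library, so levels of different genes can be set side by side. Values below are FPKM divided by a factor that brings the median gene of each library to the same level (scaled FPKM). The tables hold no counts, so the number of fragments was worked out from the width of each Cufflinks interval. All rows together implied 986717 to 1580686 fragments per library, and single fragments therefore matter for the scarce members. In the normal prostates 1 fragment of Actl6b would be worth 0.555 and 0.326 FPKM as deposited. The libraries also differ in what tissue they hold. Markers of neuroendocrine cells summed to 4.43 to 6.35 scaled FPKM in the normal prostates and to 807 and 991 in tumours 1 and 2. The sum of 10 neuronal markers was 6.91 to 7.92 against 508 and 169, that of 8 proliferation markers 41.4 to 42.3 against 1494 and 768, and that of 7 luminal markers 1731 to 1991.3 against 601 and 1558. Smooth muscle markers summed to 540 to 579 in the normal prostates, to 3.86 in tumour 1 and to 104 in tumour 2, with 3 of 6 listed at 0 in tumour 1. Basal cell markers summed to 71.1 to 72.8, with 4 of 4 listed at 0 in tumour 1 and a sum of 24.6 in tumour 2. Fibroblast markers summed to 99.0 to 123 in the normal prostates against 50.4 and 376 in tumours 1 and 2, macrophage markers to 2.65 to 5.80 against 15.6 and 48.9, and endothelial markers to 1.37 to 2.20 against 0.878 and 31.3, while B cell markers were listed at 0 throughout. Their part in the results below was not tested.

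Actl6b and Dpf1, neuronal subunits, were the members that rose in the tumours. The differences of the other 8 members did not pass the threshold, an adjusted p of 0.05 in limma with Benjamini-Hochberg adjustment over 13162 genes. The share called higher was 2 of 10 members against 9.85% of all genes tested, and the share called lower was 0 of 10 against 8.27%, a share in either direction near that of the whole table (18.1%). At an unadjusted p under 0.05 the members also included Actl6a, Dpf3, Phf10 and Smarca2, 6 of 10 in all against 39.8% of all genes. Actl6b, Dpf1 and Dpf3 passed the filter on low values (FPKM of at least 1 in at least 2 libraries) through the tumours alone. Among the 7 members with at least 1 FPKM in both normal prostates 0 were called. The median log2 fold change of the 10 was 0.44, against 0.07 over all genes tested, and that of the 7 was -0.06.

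**Figure D1:**
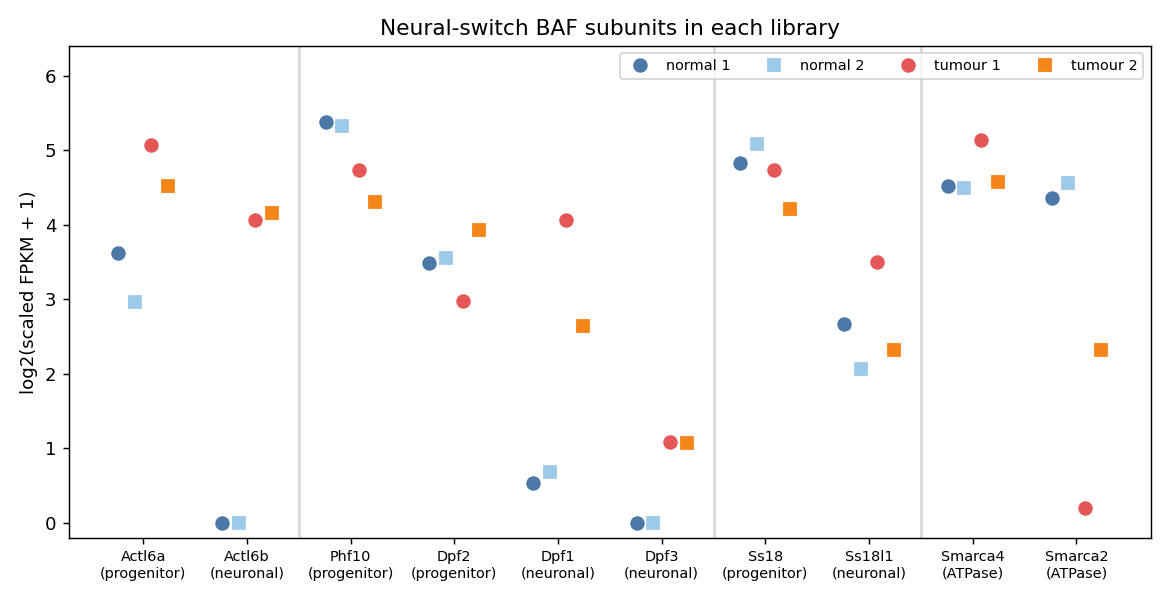
Level of each member in each of the 4 libraries, as log2(scaled FPKM + 1), with paralogs side by side. Actl6b and Dpf3 lie at 0 in both normal prostates, and Smarca2 in tumour 1 lies near 0.

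In the actin-like pair the neuronal subunit was found in the tumours alone. Actl6b, which in neurons directs BAF complexes to genes of dendrite growth, lies at chromosome 5, 137553555 to 137569573, and no other gene overlaps it in GENCODE M21. Neither normal prostate had a value above 0 for it, while tumour 1 held 15.7 scaled FPKM and tumour 2 held 16.8, from 50.3 and 46.0 implied fragments (adjusted p = 0.0195). The tumours averaged 16.2 ± 0.806 (SD, n = 2), and the groups did not overlap. Without normal 1 or normal 2 the call was lost (adjusted p = 0.135 and 0.139), while it held in the 10 other settings that used all 4 libraries. Of the neuroendocrine markers tested 11 of 12 were called higher in the tumours, and of the neuronal markers 8 of 10, and their part in the result was not tested. Its fitted log2 difference is set by the pseudocount (4.11 with 1, 7.35 with 0.1), because the normal prostates are listed at 0, and it measures no fold.

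Actl6a, the subunit of dividing cells, which also belongs to the INO80 and TIP60 complexes, lies at chromosome 3, 32708546 to 32726971. It stood at 11.3 and 6.78 scaled FPKM in the normal prostates and at 32.7 and 22.0 in the tumours. Both tumours were higher than both normal prostates, a log2 fold change of 1.51 (SE 0.41) or 2.84-fold, with an adjusted p of 0.0641, which missed the threshold. The difference passed with FPKM as deposited (2.38, adjusted p = 0.0248). All 8 proliferation markers were called higher in the tumours, and their part in this difference was not tested. The progenitor subunit was thus not lower where the neuronal one was present. In both tumours Actl6a stood above Actl6b, with overlapping Cufflinks intervals in tumour 2, and Actl6b held 32.3% and 43.3% of the FPKM of the pair, against 0% in both normal prostates. The sum of the pair went from 11.3 and 6.78 scaled FPKM to 48.4 and 38.8. Actl6a overlaps Mrpl47 on the opposite strand, and how counting treated strand is unknown here.

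The PHD finger subunits, which read histone tails, differed in make-up between the groups, while their sums lay closer together. Phf10, Dpf2, Dpf1 and Dpf3 together stood at 51.4 and 50.6 scaled FPKM in the normal prostates and at 49.3 and 39.4 in the tumours. Phf10 held 79.3% and 77.6% of that sum in normal prostate and 51.8% and 47.7% in tumours 1 and 2. Dpf1 and Dpf3, the neuronal members, held 0.873% and 1.20% in normal prostate, against 34.2% and 16.2% in tumours 1 and 2.

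Dpf1 (chromosome 7, 29304005 to 29317586) lay at 0.449 and 0.607 scaled FPKM in the normal prostates, from 1 and 2 implied fragments. The tumours held 15.7 and 5.27, from 76.6 and 22.0 fragments. The log2 difference was 2.75 with an SE of 0.60 (adjusted p = 0.0431), or 6.71-fold on the log2(scaled FPKM + 1) scale. Tumour 1 stood well above tumour 2, and both were above the normal prostates. The call was lost under quantile normalization (adjusted p = 0.0758), without the filter on low values (0.0804) and by voom on implied fragments (0.0642). Dpf1 overlaps the antisense gene Gm44632.

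Dpf3 (chromosome 12, 83213751 to 83487736), which is best known from heart and muscle, had no value above 0 in normal prostate and stood at 1.12 and 1.11 in the tumours. Those values rested on 3.6 and 2.3 implied fragments, and the lower bounds of the Cufflinks intervals were 0, so the level of Dpf3 is hardly measured (adjusted p = 0.0676). Dpf1 was above Dpf3 by value in all 4 libraries, and in both tumours their intervals did not overlap. In the normal prostates Dpf1 rested on 1 and 2 implied fragments, with lower bounds of 0, so the order there is not resolved.

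Phf10 (chromosome 17, 14944995 to 14961260), the progenitor subunit, had the highest level of the members in both normal prostates, at 40.8 and 39.2. In the tumours it stood at 25.6 and 18.8, below both normal prostates, and the log2 difference was -0.84 with an SE of 0.30 (adjusted p = 0.111). With FPKM as deposited this difference turned to 0.07, so its direction rests on the scaling. Dpf2 (chromosome 19, 5896516 to 5912871), a subunit found in most cell types, was at 10.2 and 10.7 in the normal prostates. The tumours lay on either side of them, tumour 1 at 6.90 and tumour 2 at 14.2. The log2 difference was -0.06 with an SE of 0.45 (adjusted p = 0.929). It turned positive with FPKM as deposited (0.80), by upper quartile (0.12) and without tumour 1 (0.48). It was also positive scaled to the FPKM sum (0.54), which here and below leaves out genes above 1% of a library.

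Ss18 and Ss18l1, coactivator subunits, kept their order in all 4 libraries. Ss18 (chromosome 18, 14625629 to 14682914) was at 27.5 and 33.0 scaled FPKM in the normal prostates while the tumours held 25.7 and 17.6, both lower. The log2 difference, -0.48 with an SE of 0.33 (adjusted p = 0.330), turned to 0.43 with FPKM as deposited and to 0.16 scaled to the FPKM sum. Ss18l1 (chromosome 2, 180042483 to 180070201), whose protein couples calcium signals to transcription in neurons, was present in normal prostate, unlike Actl6b. It was at 5.36 and 3.18 there and at 10.3 and 3.97 in the tumours, so that tumour 2 lay between the normal prostates (log2 difference 0.54 with an SE of 0.57, adjusted p = 0.516). Ss18l1 held 16.3% and 8.79% of the FPKM of the pair in normal prostate and 28.6% and 18.4% in the tumours.

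**Figure D2:**
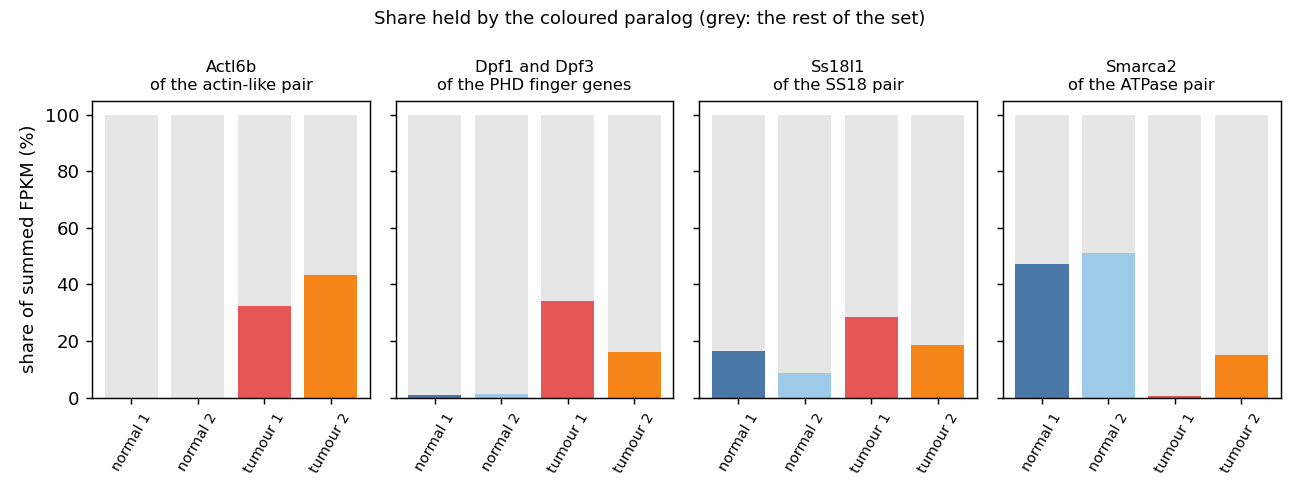
Share of the summed FPKM of each paralog set, in percent, held by the named genes in each library (coloured), with the rest of the set in grey. The neuronal share is higher in both tumours in the first 3 panels, while the share of Smarca2 is lower.

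The ATPases stood level in normal prostate and apart in the tumours. Smarca2 (chromosome 19, 26605160 to 26778321), the ATPase that is typical of non-dividing cells, was at 19.6 and 22.5 scaled FPKM in the normal prostates, level with Smarca4. It was at 0.147 in tumour 1, where it was the lowest of the 10 members, and at 3.99 in tumour 2. The groups did not overlap, and the log2 fold change was -3.20 (SE 0.78), with an adjusted p of 0.0516, which missed the threshold. It passed under quantile normalization (-3.26, adjusted p = 0.0457). The value in tumour 1 rested on 0.4 implied fragments and cannot be told from 0. Tumour 2 held 36.8 implied fragments, against 37.4 and 62.6 in normals 1 and 2, a smaller difference than in FPKM. The cause of that gap was not tested. Smarca2 has 2 groups of start sites in the tables, so its implied fragments are less certain than those of the other members. It overlaps the antisense genes Gm20616 and 4931403E22Rik. The library with the lowest Smarca2 was also the one with the lowest smooth muscle markers, and in it Krt8 and Krt18, the luminal keratins, stood at 0.258 and 0.345 against 178 to 191 and 445 to 527 in the normal prostates. In tumour 2, where Krt8 was at 438 and Krt18 at 255, Smarca2 was still below both normal prostates in scaled FPKM. The part of these markers in the result was not tested.

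Smarca4 (chromosome 9, 21616169 to 21704230), the ATPase of dividing progenitors, was at 22.0 and 21.6 in the normal prostates while the tumours held 34.2 and 22.8. The log2 difference was 0.34 with an SE of 0.33 (adjusted p = 0.474), and tumour 2 lay barely above the normal prostates. It was called higher with FPKM as deposited (1.25, adjusted p = 0.0434), where 28.0% of all genes were called higher. Smarca2 held 47.1% and 51.0% of the FPKM of the ATPase pair in normal prostate and 0.429% and 14.9% in the tumours. The sum of the pair was 41.6 and 44.1 scaled FPKM in normal prostate and 34.3 and 26.8 in the tumours. With FPKM as deposited the sum was higher in both tumours, so its direction rests on the scaling.

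These within-library shares do not depend on how libraries are scaled to each other. In each of the 4 sets both tumours lay on the same side of both normal prostates. The mean share of Actl6b differed by 37.8 percentage points between the groups, that of Dpf1 and Dpf3 by 24.2 and that of Ss18l1 by 10.9, while that of Smarca2 differed by -41.4. Without tumour 1 the difference was 15.2 for Dpf1 and Dpf3 and 5.80 for Ss18l1, and without normal 2 it was 7.17 for Ss18l1. In implied fragments in place of FPKM the difference for Smarca2 was -16.6. Fragments are not divided by transcript length, and in them its share in normal prostate was lower than in FPKM. An exact two-sided permutation test of 2 libraries against 2 gave p = 0.33 for each set, the smallest it can give, so none of these differences can pass a threshold on its own. Across all genes tested, 71.1% had groups that did not overlap. Among the members 5 lay higher and 3 lower in both tumours, against 37.7% and 33.3% of all genes.

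The order of the members by level also differed. In both normal prostates Phf10 and Ss18 had the highest values, and by value the neuronal subunits took the last 4 places. The Cufflinks intervals of Phf10 and Ss18 overlapped there. That of Ss18 also overlapped that of Smarca2 in both normal prostates and that of Smarca4 in normal 1. In both tumours Smarca4 and Actl6a had the highest values, but their intervals overlapped. In tumour 2 they also overlapped those of Phf10 and Ss18. In tumour 1 the interval of Actl6a overlapped those of Phf10 and Ss18, and that of Smarca4 overlapped that of Phf10. The order at the top is therefore not resolved. By value Actl6b held place 6 in tumour 1 and place 5 in tumour 2, but neither place is resolved. In tumour 1 its interval overlapped those of Phf10 and Ss18l1. In tumour 2 it overlapped those of Smarca4, Actl6a, Phf10, Ss18 and Dpf2. The intervals also overlapped for Dpf1 and Actl6b in tumour 1 (15.7 each), for Smarca2 and Ss18l1 in tumour 2 (3.99 and 3.97), and for Smarca2 and Smarca4 in the normal prostates.

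Subunits outside the switch were taken from a list of 22, of which 21 were in the tables and 20 were tested. Of these 1 rose, 1 fell and 18 did not pass, against 9.85% higher and 8.27% lower of all genes tested. Their median log2 fold change was 0.31. Smarce1, the HMG domain subunit BAF57, rose from 21.3 and 14.9 scaled FPKM to 96.6 and 50.6, 1.92 on the log2 scale with an SE of 0.42 (adjusted p = 0.0442). Smarcd2, a BAF60 subunit known from blood cell development, fell from 92.0 and 77.4 to 28.5 and 32.4, a log2 difference of -1.44 with an SE of 0.27 (adjusted p = 0.0330). The call of Smarce1 was lost in 4 and that of Smarcd2 in 5 of the 10 other settings that used all 4 libraries. With FPKM as deposited 6 of the 20 were called higher and 0 lower, near the 28.0% and 3.24% of all genes. Among the 18 that did not pass with scaled FPKM, Smarcb1 was at 21.8 and 23.0 against 54.9 and 41.4 (adjusted p = 0.0662). Smarcc1 was at 9.53 and 10.7 against 37.9 and 19.3 (0.0877), and Arid1a at 16.9 and 15.6 against 23.6 and 16.6 (0.576). Smarcc2, the scaffold subunit BAF170, was at 25.2 and 29.3 against 49.4 and 25.6 (0.519). Of the other BAF60 paralogs, Smarcd1 was at 1.26 and 5.13 against 30.7 and 10.5 (0.0862), and Smarcd3, the form known from heart muscle, was at 18.3 and 11.6 against 15.5 in tumour 1 and 1.91 in tumour 2 (0.370).

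**Figure D3:**
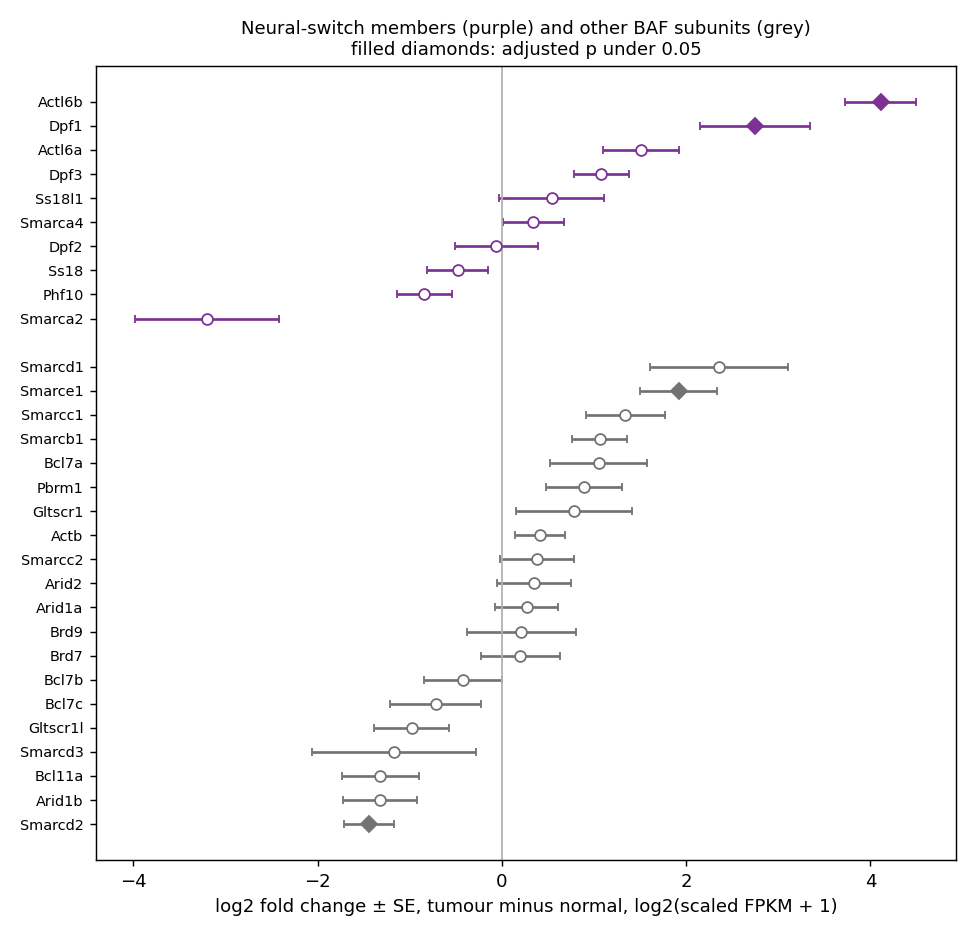
Log2 fold change with its standard error, tumour minus normal, for the 10 members (purple) and 20 other BAF subunits (grey). Filled diamonds mark an adjusted p under 0.05: Actl6b, Dpf1 and Smarce1 above 0 and Smarcd2 below it. The values of Actl6b and Dpf3 are set by the pseudocount, since both are listed at 0 in normal prostate.

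Among regulators of the switch, 5 of 11 listed genes could be tested, and 1 rose, against 9.85% of all genes tested. Rcor2, a corepressor partner of Rest, rose from 1.54 and 0.696 scaled FPKM to 9.35 and 5.90 in the tumours, 2.03 on the log2 scale with an SE of 0.47 (adjusted p = 0.0477). The call rested on 3.0 implied fragments in normal 1 and 2.0 in normal 2, and was lost in 6 of the 10 other settings that used all 4 libraries. Rest itself was at 1.37 and 1.94 in the normal prostates, listed at 0 in tumour 1 and measured at 1.91 in tumour 2, with an adjusted p of 0.476. Actl6b was at like levels in tumour 1, with Rest listed at 0, and in tumour 2, with Rest within the range of the normal prostates. The values of Rest came from few implied fragments, and bulk tissue does not show which cells held it. With 1 tumour of each kind, a link between Rest and Actl6b was not tested. Ptbp1, the splicing repressor of non-neuronal cells, was at 45.8 and 56.6 against 52.6 and 61.3 (adjusted p = 0.699). The genes of miR-9 and miR-124, 6 in all, were listed at 0 in all 4 libraries, which were made with an mRNA kit and do not measure short RNAs.

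Of 19 ATPases of other remodellers tested, 2 rose and 0 fell, against 9.85% and 8.27% of all genes. Both that rose passed the filter on low values through the tumours alone. Chd5, a neuronal CHD remodeller, was listed at 0 in normal 1 and stood at 0.0687 in normal 2, against 11.2 and 4.06 in the tumours (adjusted p = 0.0339). Hells, a remodeller of replicating chromatin, was at 0.661 and 0.224 against 11.2 and 16.4, 3.35 on the log2 scale with an SE of 0.45 (adjusted p = 0.0219).

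The genes closest in pattern to Actl6a were Myg1, Sh3bp5l and Ubr7, at Euclidean distances of 0.24, 0.29 and 0.29 on the log2(scaled FPKM + 1) scale over the 4 libraries. Those closest to Actl6b were Aatk, Pcsk1n and Elavl2, at 0.15, 0.21 and 0.22. Like Actl6b, these 3 had values above 0 only in the tumours, between 14.1 and 19.3 scaled FPKM. With 4 libraries such likeness is a description only.

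**Figure D4:**
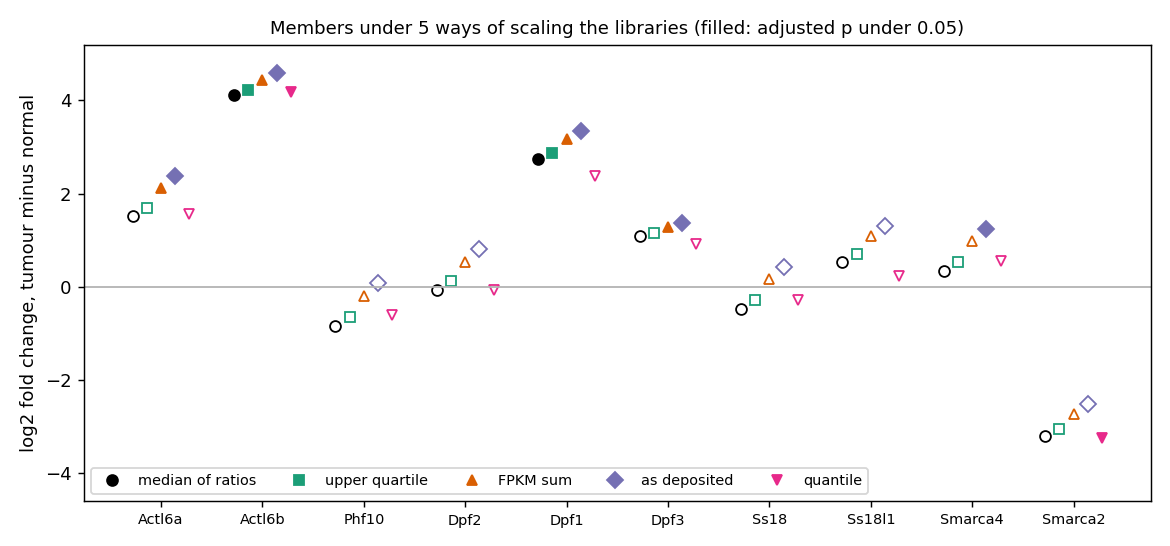
Log2 fold change of each member under 5 ways of scaling the libraries, filled where the adjusted p is under 0.05. Actl6b is filled under all 5 and Dpf1 under 4, while Phf10, Dpf2 and Ss18 change sign with FPKM as deposited.

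The number of members past the threshold moved with the scaling. The factors of the tumours exceeded those of the normal prostates by 0.94 on the log2 scale, and without that correction the members' fold changes lie higher. With FPKM as deposited 5 of 10 members were called higher (Actl6a, Actl6b, Dpf1, Dpf3 and Smarca4), and 0 lower, against 28.0% and 3.24% of all genes, and scaled to the FPKM sum it was 4 higher, against 19.3%. By voom on implied fragments Actl6b alone was called, with a background of 7.95% higher and 7.51% lower. Without normal 1 or without normal 2, limma called 0 members and 0 genes of the whole table, while 1338 and 1350 genes were higher and 1096 and 1004 lower at an unadjusted p under 0.05. Without a tumour Actl6b, Dpf1 and Dpf3 missed the filter and were not tested. Of the other 7, Actl6a was then called higher and Smarca2 lower whichever tumour was left out, with Phf10 lower without tumour 1 and Ss18l1 higher without tumour 2. These 3 of 7 calls stand against 31.5% of all genes without tumour 1 and 50.5% without tumour 2. In those fits the remaining tumour takes its spread from the normal prostates.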

How the data were processed

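RNA-seq of 2 normal prostates and 2 TRAMP tumours was analysed. The authors deposited 1 Cufflinks table per library with FPKM per gene and the bounds of its interval, per the file headers. The submitters' processing notes name GRCm38 (mm10), Cuffdiff 2.1.1, TopHat2 2.0.8, Cufflinks 2.1.1 and Trim Galore, with no role or order. Annotation, strand handling and library scaling were not given in the sources used here. From there on, 27 rows with date-like names were left out and 817 rows of 280 repeated names were summed. Coordinates follow the tables with the first base as 1. Implied fragments took each interval as 2 Poisson standard deviations on each side, and 71.0% to 72.5% of low values lay within 0.1 of a whole number. FPKM were divided by median-of-ratios factors over 11469 genes, filtered at FPKM of at least 1 in at least 2 libraries, and tested as log2(scaled FPKM + 1) by limma 3.58.1 with intensity trend in R 4.3.3, two-sided, 2 residual degrees of freedom. The code was tested on simulated data. Python 3.11.15, pandas 2.3.3, numpy 2.4.6 and matplotlib 3.10.9 were used. Members, lists and tests were chosen with earlier results of these data known. Named genes were the members, called genes of the 3 comparison lists, 8 listed genes fixed by name, and the 3 genes nearest in pattern to Actl6a and to Actl6b. Krt8 and Krt18 were added after their values were seen. Alternatives varied the scaling, pseudocount, filter, variance model, unit and libraries used. The FPKM sum used for scaling left out genes above 1% of any library.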

Additional observations from a re-analysis of the deposited data

How the results depend on the processing

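The alternatives reran the same comparison with 1 choice changed, except voom, which changed the unit and the variance model together, and the cause of a change was not tested except where the construction gives it. Over all genes limma called 1296 higher and 1088 lower, 2384 in all. With FPKM as deposited it called 4108 (3681 higher, 427 lower), scaled to the FPKM sum 2537 higher and 554 lower, by upper quartile 1532 and 804, and with no filter on low values 494, where more genes were tested. Leaving out 1 library gave 0 to 5575 calls. Of the members 2 were called, against 5 with FPKM as deposited, 4 scaled to the FPKM sum, 1 with no filter, 1 by voom and 0 to 3 with a library left out. Of the other BAF subunits 2 were called, against 6 as deposited, 4 by FPKM sum, 1 by quantile normalization, 1 with pseudocount 0.1, 1 with a filter on mean FPKM, 0 with no filter, 0 with no trend and 0 to 12 with a library left out. Of the regulators 1 was called, against 3 as deposited, 2 by FPKM sum, by upper quartile and with no trend, 0 by quantile normalization, with pseudocount 0.1 or 0.5, with no filter, with the mean filter and by voom, and 0 to 3 with a library left out. Of the other ATPases 2 were called, against 7 as deposited, 5 by FPKM sum, 1 by quantile normalization, 0 with no filter and 0 to 4 with a library left out.

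The log2 fold change of Actl6a passed as deposited (2.38) and by FPKM sum (2.12), and ranged from 1.15 to 1.80 with a library left out, passing without tumour 1 and without tumour 2. That of Smarca2 passed by quantile normalization (-3.26) and ranged from -4.11 to -2.06 with a library left out, that of Smarca4 passed as deposited (1.25), and that of Ss18l1 ranged from 0.01 to 1.13 with a library left out. Dpf3 and Actl6b are listed at 0 in normal prostate, so their fitted values are set by the pseudocount and measure no fold. Dpf3 passed as deposited (fitted 1.37), by FPKM sum (1.28) and with pseudocount 0.1 (3.60). Dpf1 missed by quantile normalization (2.38), with no filter (2.75) and by voom (3.69), and ranged from 2.71 to 2.92 without a normal prostate. Actl6b held in the other settings with all 4 libraries and missed without a normal prostate (fitted 4.21 to 4.28). Phf10 reversed as deposited (0.07) and ranged from -0.98 to -0.61 with a library left out. Dpf2 reversed as deposited (0.80), by FPKM sum (0.54), by upper quartile (0.12) and without tumour 1 (0.48), and ranged from -0.51 to 0.48 with a library left out. Ss18 reversed as deposited (0.43) and by FPKM sum (0.16).

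The share of Actl6b differed by 26.1 percentage points with 1 FPKM added, by 31.8 in implied fragments and by 32.3 to 43.3 with a library left out. The share of Smarca2 differed by -16.6 in implied fragments, which are not divided by transcript length. Smarca2 had 37.4 and 62.6 of them in the normal prostates, and Smarca4 had 135.6 and 199.5. Its share in normal prostate was thus lower than in FPKM, which limits how far it can fall. In the tumours Smarca2 had 0.4 and 36.8, and Smarca4 had 472.9 and 263.6. The cause of the rest of the change was not tested. No paired analysis was possible because the labels give no replicate numbers shared between the groups. Depth limits Dpf3, Rest, Dpf1 in normal prostate and Smarca2 in tumour 1, which rested on few fragments. With 2 libraries a group, a difference that missed the threshold does not show equal levels.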
